A study of Mus musculus with 30 samples.

Results

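The interleukin-1 (IL-1) receptor genes described here are 7 genes chosen by symbol: Il1rl1, Il18r1, Il18rap, Il1r1, Il1r2, Il1rn and Il1rap. They were measured in CD4 T cells sorted from mouse spleen, in 30 libraries. All 7 were found among the 55573 genes of the QuantSeq libraries, which count the 3′ ends of transcripts, and among the 34030 genes of the RNA-seq libraries, which count reads along transcripts.

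Receptors of this family sit at the cell surface and pass signals from IL-1, IL-18 and IL-33 through the adaptor MyD88 and IRAK kinases to NF-κB and MAP kinases. Each signalling receptor pairs a chain that binds the cytokine with an accessory chain. Il1rl1 encodes ST2, the IL-33 receptor known from TH2 cells and some regulatory T cells, and it signals with the accessory chain encoded by Il1rap. Il18r1 encodes the IL-18-binding chain and Il18rap its accessory chain. Il1r1 encodes the signalling receptor for IL-1, which also pairs with the product of Il1rap. Il1r2 encodes a decoy that binds IL-1 without signalling, and Il1rn encodes a secreted antagonist that occupies the IL-1 receptor.

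All mice were C57BL/6 and 8 weeks old. In RNA-seq, naive cells (n = 2) were wild type and CD4+CD62L+CD44-CD25-. RNA-seq TH2 cells (n = 2) were CD4+hCD2+ cells of wild-type mice carrying the IL-4BacTg transgene, and RNA-seq TFH cells (n = 2) were CXCR5hi cells of wild-type OTII Tg mice. A single RNA-seq library was labelled TH2 and another TFH2 CXCR5hi, both from IL-4BacTg x OTII Tg mice. In QuantSeq, TH2 cells (n = 4, CD4+hCD2+) and TFH2 cells (CXCR5hi, CXCR5int and CXCR5lo, n = 2 each) carried IL-4BacTg and OTII Tg. QuantSeq TFH cells (CXCR5hi n = 3, CXCR5int n = 2, CXCR5lo n = 3) carried OTII Tg. The gate of both TFH and TFH2 cells was CD4+CD45.2+ PD1+ at the named CXCR5 level. Bcl6KO cells (n = 2, CD4+hCD2+) were Bcl6f/fCd4cre x OTII Tg, so that the deletion is driven from the Cd4 promoter, and Il4KO cells (n = 2, CD4+) were Il4-/- x OTII Tg. The OTII transgene, a T cell receptor against ovalbumin, was thus shared by every QuantSeq group and absent from the RNA-seq naive and TH2 labels. Because the labels do not tie libraries to animals or batches, p-values cover only the spread among the libraries sequenced, and that spread may be technical.

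QuantSeq libraries held 1834612 to 4442404 counts, and RNA-seq libraries held 36048137 to 107398014 transcript counts. All 6 CD4 T cell markers looked up were detected in every group. The single RNA-seq libraries went against their labels: the library labelled TH2 had 135 CPM (reads of the gene per 1000000 counts) of the TFH receptor Cxcr5, and the library labelled TFH2 had 1.11 CPM. The RNA-seq TFH libraries had 438 and 442 CPM of Cxcr5 and the replicated TH2 libraries had 0 in both. The 2 single libraries therefore enter no comparison, and their values are given by label only. Sex transcripts followed the groups. Xist was 175 to 532 CPM in QuantSeq TFH and 0 to 22.3 in TFH2, Ddx3y was 0 in all TFH and 48.5 to 101 in TFH2 libraries, and TH2 libraries 1 and 2 had Xist where 3 and 4 had Ddx3y. In RNA-seq, Xist was 572 to 1195 CPM in naive and TH2 cells and 0.313 and 0.327 in TFH cells. RNA-seq TFH cells thus differed from naive and TH2 cells in sex transcripts and in the OTII transgene as well as in cell type. Only the TH2 cells of these carried IL-4BacTg. QuantSeq TFH and TFH2 cells differed in sex transcripts and IL-4BacTg. In comparisons of these groups, cell type, sex and transgene cannot be told apart.

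In RNA-seq, the receptor genes divided TH2 from TFH cells in opposite directions. TH2 cells had high Il1rl1, Il18rap and Il1r2, and TFH cells had high Il1r1. Naive cells had the highest Il18r1, while Il1rap was at a like level in all 3. Per kb of transcript, so that genes can be compared, the TH2 order was Il1rl1 at 59.2 CPM per kb, Il1r2 at 16.1, Il18rap at 8.6, Il18r1 at 4.05, Il1rap at 1.77, Il1r1 at 1.31 and Il1rn at 0.0741. In TFH cells Il1r1 led at 23.2 CPM per kb, followed by Il1rap at 2.08, and the other 5 were at 1.31 or less. In naive cells Il18r1 led at 8.41 CPM per kb and Il1rap followed at 1.97, with the others at 0.13 or less.

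**Figure D1:**
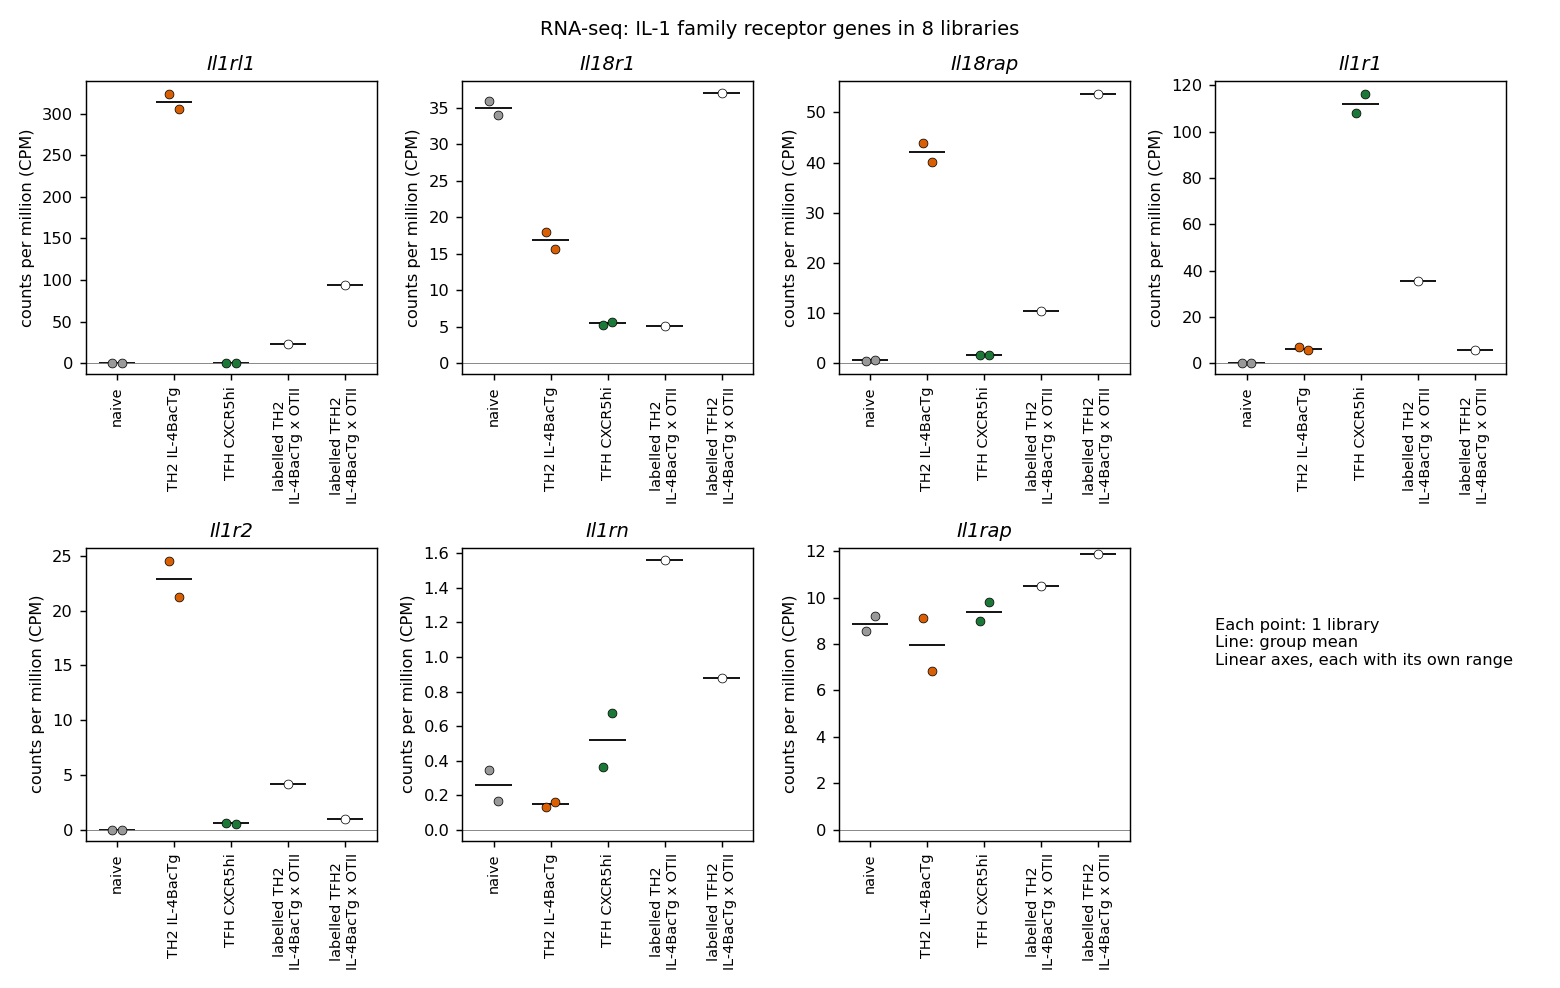
Level of each of the 7 genes (y axis, CPM on a linear scale) in every RNA-seq library (points), by group on the x axis, with group means as bars. Il1rl1 stood at 323 and 305 CPM in the TH2 libraries and Il1r1 at 108 and 116 CPM in the TFH libraries.

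Il1rl1, the IL-33 receptor, was at 0.409 and 0.449 CPM in naive cells, 323 and 305 CPM in TH2 cells and 0.145 and 0.104 CPM in TFH cells. The TH2 libraries stood far above all others and no groups overlapped. Il1rl1 rose from naive to TH2 cells by a log2 difference of 9.51 ± 0.13 (SE, n = 2 against 2, edgeR quasi-likelihood test, adjusted p = 2.51e-12). In TFH cells it was lower than in TH2 cells by a log2 difference of -11.23 ± 0.16 (adjusted p = 3.56e-12, edgeR), a level that rests on 6 reads in the TFH libraries together. It was also lower in TFH than in naive cells, at -1.72 ± 0.46 (adjusted p = 0.00807, edgeR; 6 against 29 reads). The library labelled TH2 had 23.3 CPM of Il1rl1 and the library labelled TFH2 had 93.5 CPM.

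Gata3, the TH2 lineage factor, binds GATA words in DNA. In RNA-seq it was at 683 ± 120 CPM in TH2, 83.7 ± 2.4 CPM in naive and 193 ± 7.87 CPM in TFH cells (SD, n = 2 each), a TH2 against naive log2 difference of 3.04 ± 0.11 (adjusted p = 8.52e-10, edgeR). The 250 bases before each RefSeq start of the members (GRCm38.p6, 13 windows for the 7 genes) were searched for the words AGATAA and AGATAG, and for TGATAA and TGATAG, on both strands, a motif chosen after the sequences were seen. The distal Il1rl1 window (chr1:40429320-40429569, + strand) held 5 words and the proximal one (chr1:40439379-40439628) 1. The windows of Il18rap (chr1:40515112-40515361) and Il1r2 (chr1:40085843-40086092) held 1 each, and the other 9 windows held none. Among all 32851 RefSeq windows of this length, 26.5% held at least 1 word and 0.0335% (11 windows) held at least 5. Such a match describes letters only and says nothing about binding. The windows of the TH2-high genes Il1rl1 and Il18rap are printed with that of the TFH-high gene Il1r1 (chr1:40266336-40266585), 5′ to 3′ on the + strand, with GATA words of either strand in capitals.

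The sequences of these windows follow, each ending at the base before its start site.
Il1rl1, distal start: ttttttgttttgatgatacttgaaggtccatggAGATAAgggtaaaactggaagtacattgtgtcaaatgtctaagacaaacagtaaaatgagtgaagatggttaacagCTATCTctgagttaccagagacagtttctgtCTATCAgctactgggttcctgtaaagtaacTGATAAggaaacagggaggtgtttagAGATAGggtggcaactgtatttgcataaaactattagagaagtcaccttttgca
Il1rl1, proximal start: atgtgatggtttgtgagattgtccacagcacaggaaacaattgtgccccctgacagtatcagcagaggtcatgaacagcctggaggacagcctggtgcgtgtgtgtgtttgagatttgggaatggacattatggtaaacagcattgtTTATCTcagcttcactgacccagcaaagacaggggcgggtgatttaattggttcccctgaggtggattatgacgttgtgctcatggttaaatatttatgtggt
Il18rap: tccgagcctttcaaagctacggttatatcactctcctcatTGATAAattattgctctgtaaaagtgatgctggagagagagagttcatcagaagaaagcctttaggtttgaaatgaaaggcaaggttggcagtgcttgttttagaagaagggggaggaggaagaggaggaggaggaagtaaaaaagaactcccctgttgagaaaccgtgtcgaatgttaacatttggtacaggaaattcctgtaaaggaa
Il1r1: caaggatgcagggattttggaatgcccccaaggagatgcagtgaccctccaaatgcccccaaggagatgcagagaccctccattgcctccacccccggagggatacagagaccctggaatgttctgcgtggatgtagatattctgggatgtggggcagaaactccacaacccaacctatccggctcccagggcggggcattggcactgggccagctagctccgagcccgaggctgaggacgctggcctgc

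In the distal window the words began at -217, -141, -110, -80 and -54 from the start site, in the proximal window at -103, and in the Il18rap window at -210. The files do not assign most reads of Il1rl1 to one or the other start, because the transcripts share exons. The transcript that stands for the gene, Il1rl1-202, is annotated from the proximal site and encodes the membrane form of 567 codons. Il1rl1-203 and Il1rl1-205 encode the shorter, soluble form of 337 codons. In the TH2 libraries Il1rl1-202 had 7241 and 7608 counts, Il1rl1-203 had 2048 and 2201, and Il1rl1-205, which starts at the distal site, had 1645 and 1834. Il1rl1-201, which shares all its 5053 bases with Il1rl1-202, had 7237 and 7601 counts, so a read was counted on several transcripts. Il1rl1-201 begins downstream of the proximal start site. The 5302 bases of Il1rl1-202 thus drew few further reads, and few reads were particular to the proximal start. Use of either start was not tested. The most separate soluble transcript, Il1rl1-203, has 1425 of its 2661 bases in no other transcript, and its 770 and 827 counts per kb stood below the 1366 and 1435 of Il1rl1-202. Transcript shares were not tested.

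**Figure D2:**
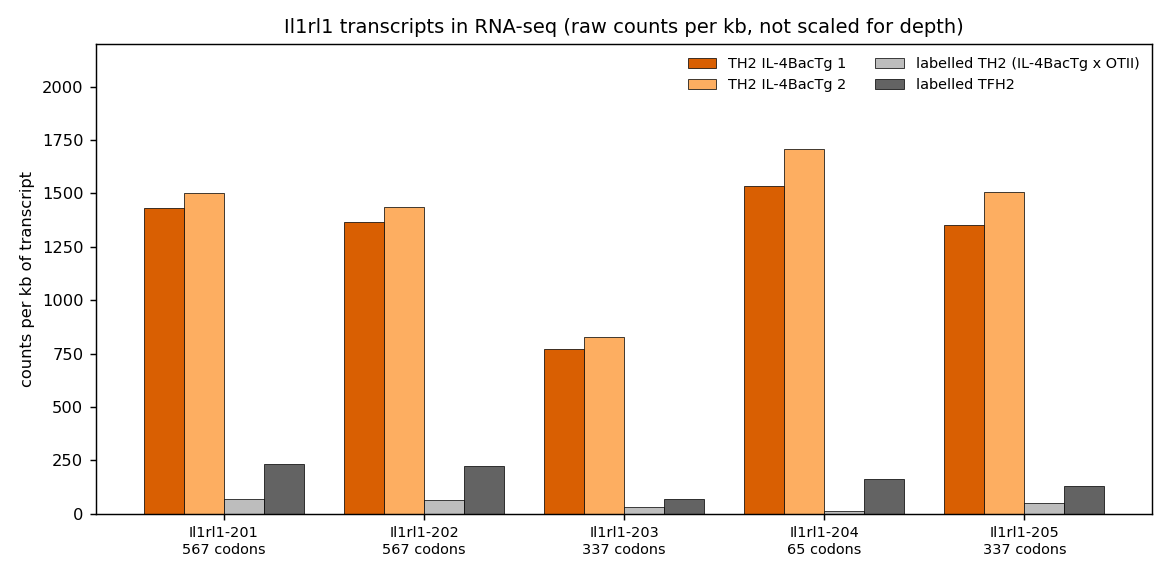
Raw counts per kb of transcript (y axis) for the 5 annotated Il1rl1 transcripts (x axis, with coding length in codons) in the 2 TH2 libraries and the 2 single libraries. Il1rl1-203 was lowest in the TH2 libraries, at 770 and 827 counts per kb.

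Il18rap, the accessory chain for IL-18, had a pattern like that of Il1rl1 but did not fall to the naive level in TFH cells. It was at 0.472 and 0.702 CPM in naive, 43.9 and 40.2 CPM in TH2 and 1.6 and 1.62 CPM in TFH cells. The groups did not overlap, and TFH libraries lay between naive and TH2. Il18rap was higher in TH2 than naive cells by 6.15 ± 0.16 on the log2 scale (adjusted p = 6.82e-11, edgeR) and higher in TFH than naive cells by 1.41 ± 0.23 (adjusted p = 0.000245, edgeR). TFH was lower than TH2 by a log2 difference of -4.74 ± 0.15 (adjusted p = 2.33e-10, edgeR). The library labelled TH2 had 10.5 CPM of Il18rap and the library labelled TFH2 had 53.6 CPM.

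Il18r1, the chain that binds IL-18, ran the other way from its partner between naive and TH2 cells. It was at 35.9 and 34 CPM in naive, 18 and 15.7 CPM in TH2 and 5.24 and 5.68 CPM in TFH cells, in that order without overlap. The log2 difference was -1.04 ± 0.11 for TH2 against naive (adjusted p = 5.23e-06, edgeR), -2.70 ± 0.12 for TFH against naive (adjusted p = 7.09e-09, edgeR) and -1.66 ± 0.12 for TFH against TH2 (adjusted p = 3.53e-07, edgeR). The library labelled TH2 was at 5.08 CPM and the library labelled TFH2 at 37.1 CPM.

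Il1r1, the signalling IL-1 receptor, had its highest level in TFH cells. It was at 0.0944 and 0.14 CPM in naive, 7.06 and 5.57 CPM in TH2 and 108 and 116 CPM in TFH cells, without overlap between groups. Il1r1 rose from naive to TFH cells by 9.80 ± 0.19 (log2, adjusted p = 1.52e-11, edgeR) and from naive to TH2 cells by 5.68 ± 0.27 (adjusted p = 6.76e-09, edgeR), both against 8 reads in the naive libraries. TFH exceeded TH2 by 4.12 ± 0.11 (log2, adjusted p = 9.03e-11, edgeR). The library labelled TH2 had 35.6 CPM of Il1r1 and the library labelled TFH2 had 5.81 CPM.

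Il1r2, the decoy, was listed at 0 in both naive libraries, at 24.5 and 21.2 CPM in TH2 and at 0.655 and 0.573 CPM in TFH cells. With 3 reads put in each empty library, TH2 was at least 256-fold higher than naive (adjusted p = 9.24e-10, edgeR), and TFH was at least 6.87-fold higher than naive (adjusted p = 1.25e-05, edgeR), bounds that cover counting error only. TFH was lower than TH2 by a log2 difference of -5.23 ± 0.21 (adjusted p = 6.38e-09, edgeR). The libraries labelled TH2 and TFH2 had 4.2 and 1.03 CPM of Il1r2.

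Il1rn, the secreted antagonist, was near the limit of detection, with 3 to 13 reads in each of the 6 replicated libraries. It was at 0.346 and 0.168 CPM in naive, 0.134 and 0.16 in TH2 and 0.364 and 0.678 CPM in TFH cells. TFH was above TH2 by 1.70 ± 0.65 (log2, adjusted p = 0.0418, edgeR), a call lost with DESeq2 (adjusted p = 0.192) and without TH2 library 1 or 2 (0.107 and 0.104) or TFH library 2 (0.199). Neither TH2 nor TFH passed the test against naive (adjusted p = 0.367 and 0.169, edgeR).

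Il1rap, the shared accessory chain, passed the test in no RNA-seq comparison. It was at 8.56 and 9.2 CPM in naive, 9.11 and 6.85 in TH2 and 8.98 and 9.8 in TFH cells, all overlapping. Its log2 differences were -0.14 ± 0.16 for TH2 against naive, 0.06 ± 0.15 for TFH against naive and 0.20 ± 0.16 for TFH against TH2 (adjusted p = 0.454, 0.789 and 0.31, edgeR). Without TH2 library 1, TH2 was lower than naive at -0.38 (adjusted p = 0.029) and TFH higher than TH2 at 0.44 (adjusted p = 0.0151, edgeR).

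Counted together, 5 of the 7 genes were called between TH2 and naive cells (4 higher, 1 lower), where 65.8% of all 17013 genes tested were called (33.9% higher, 31.9% lower). Between TFH and naive cells 5 of 7 were called (3 higher, 2 lower), beside 57.2% of all genes (29.6% higher, 27.6% lower). Between TFH and TH2 cells 6 of 7 were called (2 higher, 4 lower), beside 61.8% of all genes (30.8% higher, 31% lower). These shares are near the background: RNA-seq libraries of a group differed little (biological coefficient of variation 0.0879), and most genes were called. By a rule added after the data were seen, a call with at least a 4-fold change, 4 of 7 members passed for TH2 against naive (16.5% of all genes), 3 of 7 for TFH against naive (11.5%) and 4 of 7 for TFH against TH2 (15%). The median log2 difference of the members was 5.68, 0.95 and -1.66 in these comparisons, beside 0.00, 0.00 and -0.01 over all genes, and stayed the same with Il1r2 at its bound. The comparisons share libraries, so these values are given side by side only.

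**Figure D3:**
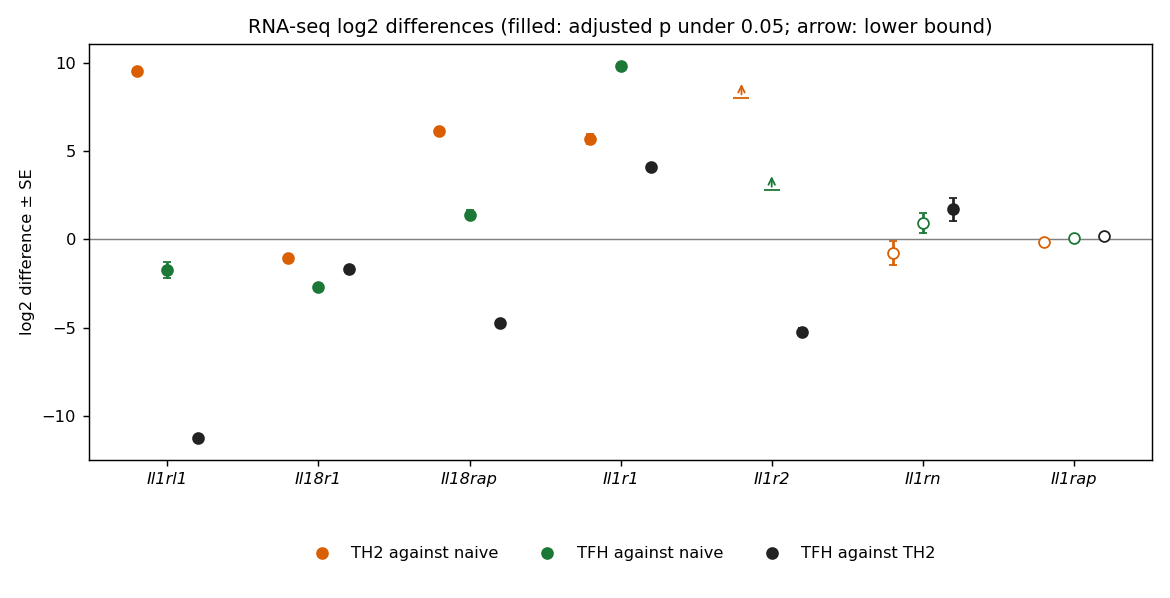
Log2 differences ± SE (y axis) of the 7 genes (x axis) in the 3 RNA-seq comparisons, filled where adjusted p was under 0.05 and with an arrow where the value is a lower bound. Il1rl1 spans 9.51 (TH2 against naive) to -11.23 (TFH against TH2), and Il1rap stays near 0 in all 3.

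Of these 7 genes, 5 are neighbours on chromosome 1 with Il1rl2, in 1 cluster of 478 kb on the + strand (GENCODE M21, GRCm38, 40074079 to 40551705). In order they are Il1r2 (40074079 to 40125231), Il1r1 (40225080 to 40317257), Il1rl2 (40324610 to 40367562), Il1rl1 (40429570 to 40465415), Il18r1 (40465552 to 40500854) and Il18rap (40515362 to 40551705). Il1rl1 ends 136 bases before Il18r1 begins. Il1rn lies on chromosome 2 (24336853 to 24351494) and Il1rap on chromosome 16 (26581704 to 26730117). Along the cluster the TFH against TH2 log2 difference was -5.23, 4.12, 1.36, -11.23, -1.66 and -4.74. Neighbours thus differed in direction: Il1r2 lower, Il1r1 and Il1rl2 higher, and the remaining 3 lower in TFH cells. The receptor Il1rl2, which answers IL-36, was 9.05 ± 0.818 CPM in naive, 3.8 ± 0.0517 in TH2 and 10 ± 0.471 CPM in TFH cells (SD, n = 2 each), lower in TH2 than naive at -1.24 ± 0.15 (adjusted p = 2.12e-05, edgeR).

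**Figure D4:**
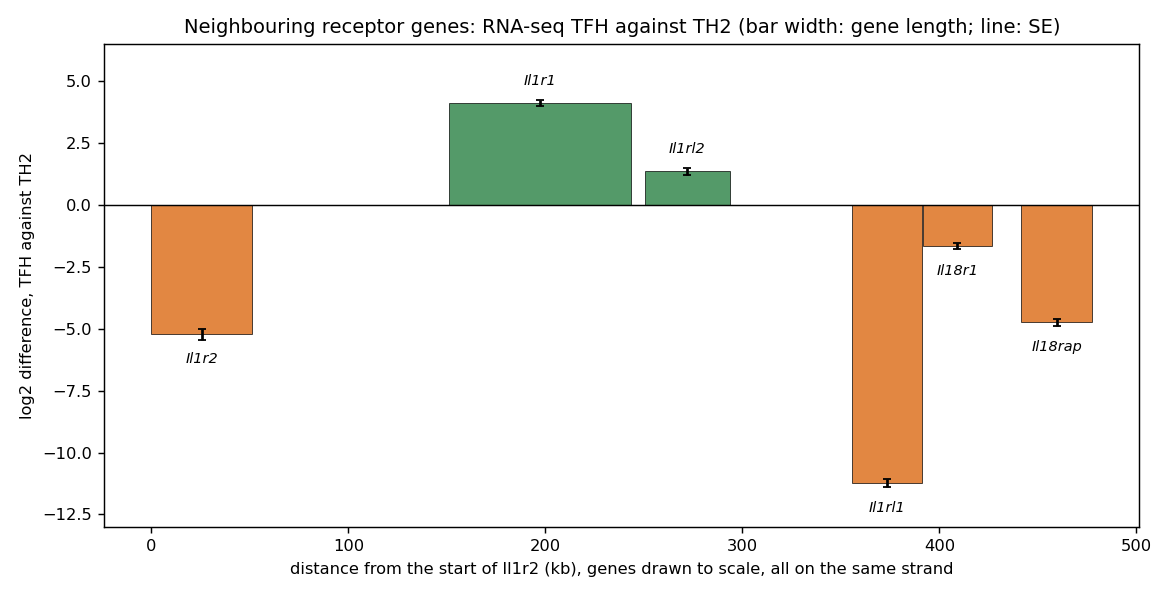
TFH against TH2 log2 difference in RNA-seq (y axis, bars with SE) of the 6 neighbouring receptor genes, drawn at their distance from the start of Il1r2 (x axis, kb) with bar width as gene length. Values run from 4.12 for Il1r1 to -11.23 for Il1rl1.

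Basophils and mast cells also carry ST2, and the sum of their markers was highest in TH2 cells in RNA-seq, as was Il1rl1. The summed level of 9 such markers was 357 and 365 CPM in TH2, 1.52 and 1.92 in naive and 4.33 and 4.59 CPM in TFH libraries. Of the TH2 sum, Cyp11a1 made up 307 ± 13.4 CPM and Cpa3 52.7 ± 8.27 CPM. Mcpt8, a basophil protease, was 0.313 and 0.321 CPM in the TH2 libraries (7 and 8 reads) and 0 in naive and TFH libraries. Fcer1a, Ms4a2 and Prss34 were at 0 in both TH2 libraries. Of 7 markers tested for TH2 against naive, 3 were called higher, Cyp11a1, Cpa3 and Mcpt8 (adjusted p = 2.51e-12, 1.17e-10 and 0.00231, edgeR), and none lower, beside 33.9% and 31.9% of all genes. The markers did not all follow Il1rl1. For TFH against TH2, 2 of 6 tested were called higher and 3 lower, beside 30.8% and 31% of all genes. For TFH against naive, 2 of 5 were called higher and 1 lower, beside 29.6% and 27.6%. Regulatory T cell markers summed to 1321 and 1322 CPM in TH2, 977 and 978 in TFH and 220 and 223 in naive cells. Of 8 tested, 6 were called higher and 2 lower in TH2 than naive cells (edgeR), beside 33.9% and 31.9% of all genes. For TFH against TH2, 2 of these 8 were called higher and 6 lower, beside 30.8% and 31%. For TFH against naive, 4 were called higher and 4 lower, beside 29.6% and 27.6%. Foxp3 was among those lower in TH2, at 12.6 ± 0.126 CPM against 59.4 ± 2.8 CPM in naive cells. NK and CD8 markers, 6 of 8 detected, summed to 987 and 1248 CPM in TH2 and to at most 80.6 CPM in TFH and naive cells. Gzma made up 1093 ± 184 CPM of the TH2 sum, and Ncr1 and Klrb1c were at 0. Of the NK and CD8 markers 7 were tested, and 2 were called higher and 4 lower in TH2 than naive cells (edgeR), beside 33.9% and 31.9% of all genes. For TFH against TH2, 2 were called higher and 1 lower, beside 30.8% and 31%. The part of these markers in the receptor values was not tested, and fewer cells of a type cannot be told apart from less RNA per cell in such bulk samples.

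QuantSeq covered more groups with less depth and wider spread (biological coefficient of variation 1.36). Of the 7 genes, 6 passed the filter on low counts, and Il1rn did not. In QuantSeq the TH2 cells, here from IL-4BacTg x OTII mice, had little Il1rl1: 0.39, 0.337, 0 and 0 CPM, against 323 and 305 CPM in the RNA-seq TH2 libraries of IL-4BacTg mice. Kit and genotype both differ between these values and cannot be told apart, and no test was made across assays. The single RNA-seq libraries of IL-4BacTg x OTII mice had 23.3 CPM (labelled TH2) and 93.5 CPM (labelled TFH2) of Il1rl1. Low levels were not particular to Il1rl1: 8 effector genes known to answer IL-33 or IL-18 summed to 3.24 to 36.1 CPM in QuantSeq TH2 libraries. They summed to 188 and 203 CPM in RNA-seq TH2 and 80 to 241 CPM in QuantSeq TFH2 libraries. Among the members, Il18rap, Il1r1, Il1r2 and Il1rap also had lower means in QuantSeq TH2 than in RNA-seq TH2 cells. Il18r1 went the other way, at 37.3 to 102 CPM in QuantSeq TH2 and 15.7 to 18 CPM in RNA-seq TH2 libraries. The cause was not tested.

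**Figure D5:**
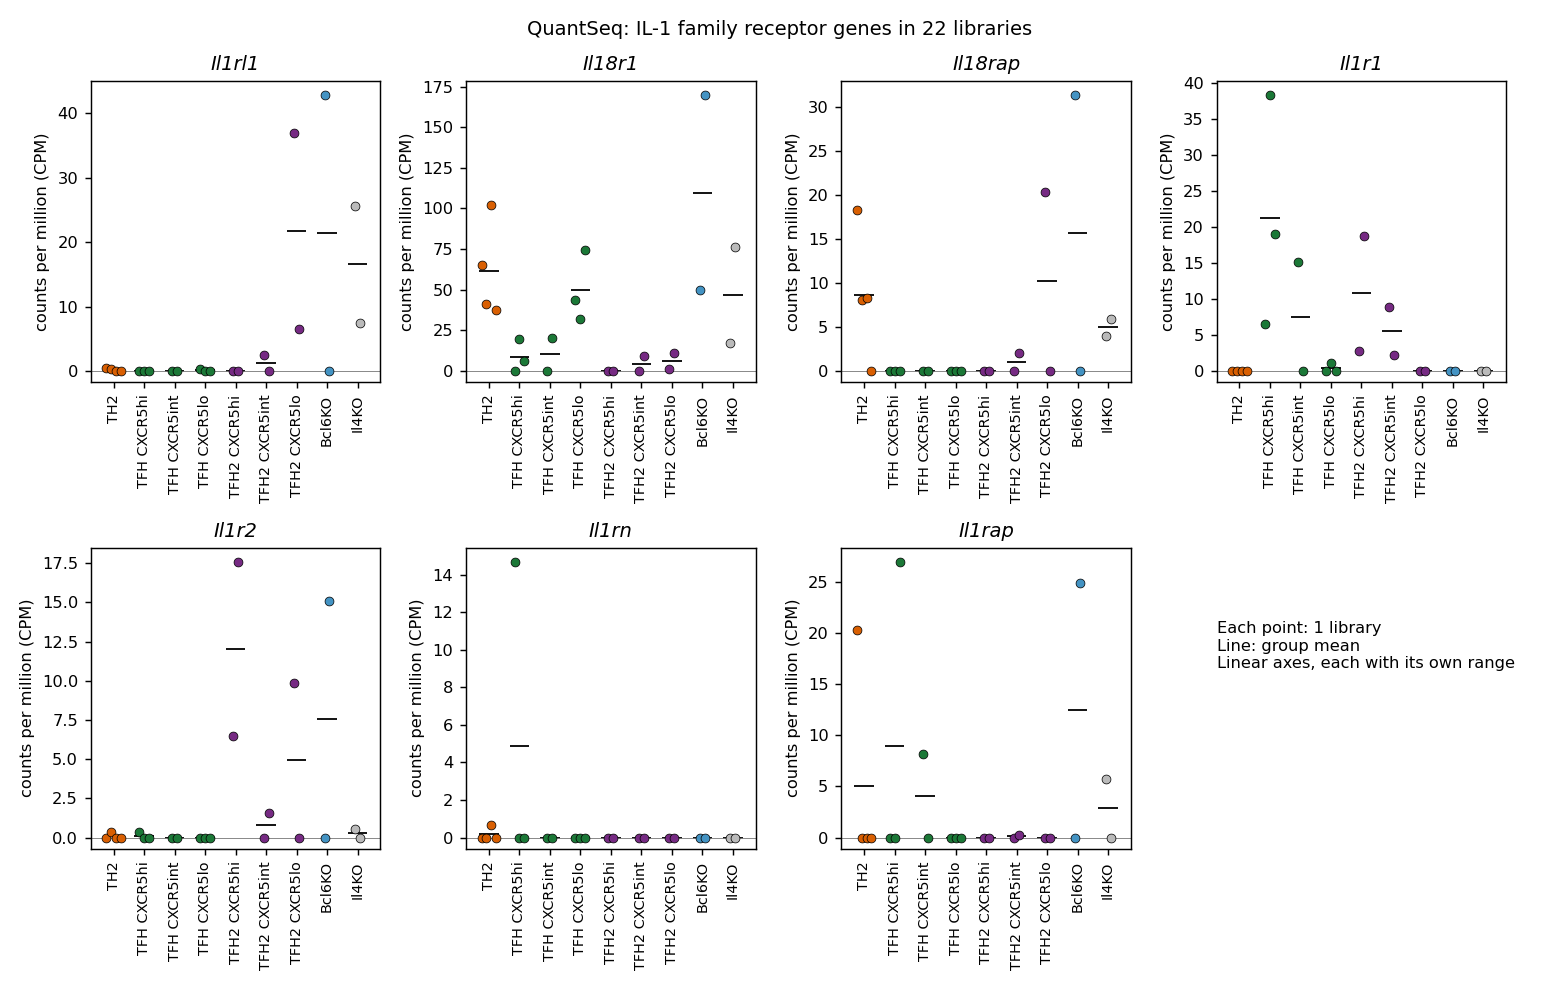
Level of each gene (y axis, CPM on a linear scale) in every QuantSeq library (points) by group (x axis), with group means as bars. Il18r1 reached 37.3 to 102 CPM in TH2 and at most 10.9 CPM in TFH2 libraries, and Il18rap was 0 in all 8 TFH libraries.

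Il18rap gave the only member called in QuantSeq. It was at 18.3, 8.1, 8.29 and 0 CPM in TH2 and at 0 in all 8 TFH libraries, so that 3 TH2 libraries stood above every TFH library and the other was at 0 as well. TFH was at least 9.56-fold lower than TH2 (adjusted p = 0.0198, edgeR), a bound that covers counting error only. This was 1 of 6 members, where 5.22% of the 14383 genes tested were called (2.49% lower). The call was lost with the CXCR5hi gate alone (adjusted p = 0.285) and with TH2 libraries 3 and 4 alone (adjusted p = 0.0828), and it held with TH2 libraries 1 and 2 alone (adjusted p = 0.0306, edgeR). Fewer libraries enter each of these fits. The fitted log2 difference was -7.73 as reported and ran from -8.35 to -6.69 over the alternatives, values that depend on the prior count because the TFH libraries are empty. NK and CD8 T cells also carry the IL-18 receptor, and their markers summed to 930, 691, 101 and 108 CPM in TH2 libraries 1 to 4, against 0 to 44.6 CPM in the TFH libraries. Gzma made up 885, 672, 79.2 and 108 CPM of the TH2 sums, was at most 10.8 CPM in TFH and was called lower in TFH than TH2 (-7.83 ± 1.42, adjusted p = 0.00213, edgeR). In TH2 libraries 3 of the 8 markers were detected, with Ncr1, Klrb1c, Prf1, Cd8a and Klrk1 at 0. The part of these markers in the Il18rap value was not tested. In RNA-seq, Il18rap was likewise lower in TFH than in TH2 cells. In the other QuantSeq groups Il18rap was 0 and 0 (TFH2 CXCR5hi), 0 and 2.03 (CXCR5int), 20.4 and 0 (CXCR5lo), 31.4 and 0 (Bcl6KO) and 4.02 and 5.88 CPM (Il4KO).

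Il18r1 had reads in every TH2, Bcl6KO and Il4KO library of QuantSeq. It was at 65.1, 41.2, 102 and 37.3 CPM in TH2 libraries. TFH libraries had 0, 19.4 and 5.95 CPM (CXCR5hi), 0 and 20.4 (CXCR5int) and 43.6, 32 and 74.5 CPM (CXCR5lo). TFH2 libraries had 0 and 0, 0 and 9, and 1.41 and 10.9 CPM in the same order of gates. All 6 TFH2 libraries were below all 4 TH2 libraries, and Il18r1 was 1 of 6 members without overlap there, as were 5.75% of all genes. The log2 difference of -4.19 ± 1.40 for TFH2 against TH2 did not pass the test (adjusted p = 0.115, edgeR). It passed with DESeq2 (0.0112), with no filter on low counts (0.000294) and in the fit on these 2 groups (0.0335). None of the 6 members was called for TFH2 against TH2 with edgeR, where 3.93% of all genes were, and DESeq2 called 1. At an unadjusted p under 0.05 there were 3 of 6 members, beside 19.5% of all genes. TFH against TH2 was -1.34 ± 1.20 for Il18r1 (adjusted p = 0.648, edgeR) and TFH2 against TFH was -2.85 ± 1.24 (adjusted p = 0.291, edgeR).

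Across the CXCR5 gates, Il18r1 was lower and Il1r1 higher in CXCR5hi than in CXCR5lo libraries, without overlap, in both TFH and TFH2 cells. For TFH, Il18r1 had a log2 difference of -2.59 ± 1.36 and Il1r1 of 5.60 ± 3.25 (both adjusted p = 0.641, edgeR). For TFH2, CXCR5hi was at least 5.33-fold lower in Il18r1 and at least 7.99-fold higher in Il1r1 (both adjusted p = 0.842, edgeR), bounds that cover counting error only. No member was called in either contrast with edgeR, of 5 tested in each, beside 0.139% of all genes for TFH and 0.153% for TFH2. At an unadjusted p under 0.05 there were 1 and 2 members, beside 6.06% and 4.37% of all genes, and DESeq2 called none. Groups without overlap were 2 members for TFH (8.96% of all genes) and 3 for TFH2 (27.8%), the third being Il1rl1. Without TFH2 CXCR5lo library 1, Il18r1 was called lower in CXCR5hi (adjusted p = 0.0311, edgeR). The difference of the gate effects between TFH2 and TFH was called for 0 of 6 members (edgeR interaction, lowest adjusted p 0.992, none at an unadjusted p under 0.05). Il18rap was at 0 in TFH CXCR5hi and CXCR5lo, Il1rap in TFH2 CXCR5hi and CXCR5lo, and Il1rl1 in CXCR5hi of both cell types. Il18r1 was at 0 in TFH2 CXCR5hi, Il1r1 in TFH2 CXCR5lo and Il1r2 in TFH CXCR5lo. With such empty groups the size of the difference cannot be estimated, so for all 6 members the test could not decide.

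Il1r1 was 0 in all TH2, Bcl6KO and Il4KO libraries. It was at 6.49, 38.4 and 19.1 CPM in TFH CXCR5hi, 15.1 and 0 in CXCR5int and 0, 1.14 and 0 CPM in CXCR5lo libraries. TFH2 libraries had 2.83 and 18.7, 8.9 and 2.25, and 0 and 0 CPM in the same order. Over all gates TFH was at least 8.36-fold higher than TH2 (adjusted p = 0.102, edgeR, and 0.0386 with DESeq2). TFH2 was at least 4.54-fold higher than TH2 (adjusted p = 0.159, edgeR). Both bounds rest on group means and cover counting error only, not the spread among libraries. In RNA-seq the TFH against TH2 difference in Il1r1 passed the test in the same direction. Myeloid markers, which mark cells that also carry the IL-1 receptor, summed to 0.78 to 6.96 CPM in TH2, 67.3 to 270 in TFH and 291 to 1363 CPM in TFH2 libraries. All 10 were detected in TFH2 and 9 in TFH, where Cd14 was at 0. In the TFH2 gates that sum was 672 and 1363 CPM (CXCR5hi) and 291 and 323 (CXCR5lo), and Il1r1 was 0 in the latter. B cell markers summed to 60.5 to 147 CPM in TH2, 151 to 292 in TFH and 223 to 1001 in TFH2, and erythroid markers to 0 to 39.4, 40 to 343 and 424 to 1636 CPM. The part of these cells in the QuantSeq values was not tested. In RNA-seq, where the Il1r1 difference was called, myeloid sums were 19.1 to 19.6 CPM in TH2 and 21.4 to 24.3 CPM in TFH cells. Single markers differed more: of 10 tested, 6 were called higher and 1 lower in TFH than TH2 cells (edgeR), beside 30.8% and 31% of all genes. Lyz2, Vcam1 and C1qa were at 0 in the RNA-seq TH2 libraries. Of 8 B cell markers tested there, 6 were called higher and 1 lower. The part of these cells in the RNA-seq values was not tested either.

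Il1rl1 in QuantSeq was 0 in 7 of 8 TFH libraries and 0.274 CPM in TFH CXCR5lo library 1. TFH2 libraries had 0 and 0 (CXCR5hi), 2.43 and 0 (CXCR5int) and 37 and 6.54 CPM (CXCR5lo). Bcl6KO libraries had 42.9 and 0 CPM. The Il4KO libraries, at 25.6 and 7.51 CPM, were above every TH2 library. Read counts were 123 in TFH2, 1 in TFH, 2 in TH2, 134 in Bcl6KO and 112 in Il4KO, too few in TFH and TH2 for a fold. The adjusted p (edgeR) was 0.113 for TFH2 against TFH, 0.257 for TFH2 against TH2, 0.73 for Bcl6KO and 0.789 for Il4KO against TH2. In TFH2 cells, CXCR5hi was at least 18.8-fold lower than CXCR5lo (adjusted p = 0.842, edgeR), with most reads in CXCR5lo library 1. This bound covers counting error only.

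For TFH2 against TFH, none of 6 members was called with edgeR, as 0.313% of all genes were, and DESeq2 called none. At an unadjusted p under 0.05 there were 5 of 6 members, beside 13.3% of all genes. They were mixed in direction: Il1rl1, Il18rap and Il1r2 were higher in TFH2, and Il18r1 and Il1rap lower. Il1rl1 had 105 of its 123 TFH2 reads in CXCR5lo library 1. Il1rap had 1 read in TFH2 and 142 in TFH, 109 of them in CXCR5hi library 3 (-5.72 ± 2.41, adjusted p = 0.236, edgeR). Il18rap was at least 4.12-fold higher in TFH2 (adjusted p = 0.131, edgeR), a bound that covers counting error only. It rests on TFH2 CXCR5lo library 1 at 20.4 CPM and CXCR5int library 2 at 2.03 CPM. Il1r2 had 99 reads in TFH2 and 1 in TFH (adjusted p = 0.175, edgeR). It was at 6.46 and 17.6 CPM in TFH2 CXCR5hi, 0 and 1.58 in CXCR5int, 9.86 and 0 in CXCR5lo and 0 and 15.1 CPM in Bcl6KO. In the remaining groups it was at most 0.574 CPM.

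In the knockout libraries the targeted genes were read first. Bcl6 was 6.73 and 26.4 CPM in the libraries labelled Bcl6KO and 0.39, 13.2, 1.99 and 5.95 CPM in TH2, and Il4 was 0 and 0.98 CPM in Il4KO and 0, 0, 13.3 and 0 CPM in TH2. The labels do not say which part of Bcl6 is deleted, and reads at a 3′ end outside it would persist, so that these levels do not check the Bcl6KO label. TH2 cells carried IL-4BacTg, which the knockout labels do not name, and Il4KO cells were sorted as CD4+ rather than CD4+hCD2+. The effect of a knockout cannot be told apart from these differences. None of the members was called between either knockout and TH2 by edgeR, of 5 tested in each, beside 0.0139% and 0.0556% of all genes. At an unadjusted p under 0.05 there was 1 member in each, Il1rl1, beside 6.79% of all genes for Bcl6KO and 6.19% for Il4KO, and DESeq2 called none. The Il4KO libraries did not overlap TH2 in Il1rl1, as for 9.69% of all genes. Il18r1 was 49.6 and 170 CPM in Bcl6KO and 17.2 and 76.1 CPM in Il4KO cells, log2 differences of 0.77 ± 1.71 and -0.34 ± 1.77 from TH2 (adjusted p = 1 for both, edgeR). Il1rap was seen in 6 of 22 QuantSeq libraries, from 0.225 to 27 CPM, and Il1rn in 2, at 14.7 CPM in TFH CXCR5hi library 1 and 0.663 CPM in TH2 library 3.

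The genes around the receptors came from lists chosen with earlier results of these data known. Ligands and soluble inhibitors, 10 in the list, were low in RNA-seq. There, 5 were tested, Il33, Il1f6, Il1f8, Il1f5 and Il1f10 being at 0, and the mean levels of Il1a, Il1b and Il18 were at most 0.261 CPM. Il1f9, an IL-36 cytokine, was 1.72 to 2.7 CPM over the group means and passed no test. Il18bp, a soluble protein that binds IL-18, was 5.61 CPM in naive, 1.63 in TH2 and 5.95 CPM in TFH cells. It fell in TH2 against naive cells (-1.76 ± 0.19, adjusted p = 9.62e-06, edgeR) and was higher in TFH than TH2 cells (1.82 ± 0.20, adjusted p = 9.19e-06, edgeR). In QuantSeq 2 of the 10, Il18 and Il18bp, were tested and neither was called. Il18 was 0 in all TH2 libraries, 0 to 23.7 CPM in TFH with reads in 4 of 8 libraries, and 0 to 25 CPM in TFH2 with reads in 4 of 6. TFH was at least 5.62-fold and TFH2 at least 6.73-fold higher than TH2 in Il18 (adjusted p = 0.14 and 0.151, edgeR), bounds that cover counting error only. Il18bp reached 26.6 CPM in TFH2 CXCR5int library 2 and 5.13 CPM in TFH2 CXCR5hi library 2, and was at most 3.59 CPM elsewhere. Of 4 other family receptors, Sigirr, an inhibitory one, rose by 0.32 ± 0.07 in TH2 and 0.47 ± 0.07 in TFH against naive cells (adjusted p = 0.00222 and 0.000184, edgeR). Il1rapl1 was at 0 in every group, and Il1rapl2 in every group but the single RNA-seq library labelled TFH2.

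Of 23 genes of signalling below the receptors, 10 were higher and 10 lower in TH2 than naive cells, 10 higher and 6 lower in TFH than naive, and 13 higher and 4 lower in TFH than TH2 cells (edgeR). Over all genes, the shares called higher and lower were 33.9% and 31.9%, 29.6% and 27.6%, and 30.8% and 31% in these comparisons. The list medians were 0.00, 0.16 and 0.26 on the log2 scale, against 0.00, 0.00 and -0.01 over all genes. Nfkbiz, an NF-κB cofactor induced by IL-1, was 884 ± 8.71 CPM in TFH, 147 ± 3.86 in naive and 73.7 ± 1.03 CPM in TH2 cells (SD, n = 2 each). Its TFH against TH2 difference was 3.55 ± 0.08 (adjusted p = 2.72e-11, edgeR), and in QuantSeq it was 3.07 ± 0.79 (adjusted p = 0.0294, edgeR). Mapkapk2, a kinase below p38, was higher in TFH than TH2 cells in QuantSeq as well (1.27 ± 0.38, adjusted p = 0.0343, edgeR). These 2 were the only ones of 22 tested that were called there for TFH against TH2, and Nfkb1 was the only one for TFH2 against TH2 (1.78 ± 0.48, adjusted p = 0.0145, edgeR). Peli2, a Pellino ubiquitin ligase, was 150 ± 2.86 CPM in TH2 and 31.5 ± 1.94 in naive cells (2.26 ± 0.08, adjusted p = 6.99e-10, edgeR). Rela, an NF-κB subunit, was 1.13 ± 0.09 higher and Traf6, an adaptor, -0.80 ± 0.07 lower in TFH than TH2 cells (adjusted p = 7.52e-07 and 1.67e-06, edgeR).

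Of 7 tested effector genes known to answer IL-33 or IL-18 in T cells, 6 were higher and 1 lower in TH2 than naive cells in RNA-seq (edgeR), where 33.9% of all genes were called higher and 31.9% lower. Il13 was 69.3 ± 1.02 CPM in TH2, 0.11 ± 0.156 in naive and 0.325 ± 0.203 CPM in TFH cells, a TH2 against naive difference of 9.32 ± 0.35 (adjusted p = 3.04e-07, edgeR). Il10 was 94.7 ± 10 CPM in TH2 and 1.5 ± 0.0148 CPM in TFH cells (TFH against TH2, -6.01 ± 0.14, adjusted p = 3.35e-11, edgeR). Il4 was higher in TFH, at 51.8 ± 1.51 CPM, than in TH2 cells, at 23.1 ± 1.22 CPM (1.13 ± 0.09, adjusted p = 5.61e-07, edgeR). Among lineage factors, Bcl6, which directs the TFH program, was 399 ± 2.23 CPM in TFH and 7.16 ± 0.648 CPM in TH2 cells (5.76 ± 0.09, adjusted p = 3.96e-12, edgeR). Maf rose in TFH over naive cells by 6.70 ± 0.13 (adjusted p = 1.52e-11, edgeR) and in TH2 over naive cells by 4.04 ± 0.12 (adjusted p = 1.51e-10, edgeR). In QuantSeq, Gata3 was lower in TFH than TH2 cells (-1.11 ± 0.28, adjusted p = 0.00713) and higher in TFH2 than TFH cells (1.27 ± 0.25, adjusted p = 0.00291, edgeR). No effector gene was called in any QuantSeq comparison by edgeR.

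Over the means of the 9 QuantSeq groups, the genes whose log2(CPM + 1) was most like that of a member were picked by Pearson r among 14382 genes. For Il18rap they were Ccr2, a chemokine receptor (r = 0.986), Prdm1, which encodes the repressor Blimp-1 (0.978), and Gm44005 (0.975). For Il1r1 they were D230025D16Rik (0.991), Gm2044 (0.955) and the cytokine gene Tnf (0.953). Il1rl1 was most like Tarbp1 (0.974), 4930515G01Rik (0.967) and Gm48405 (0.961), and Il18r1 most like Epb41l4aos (0.975), Gm8973 (0.955) and Acap3 (0.954). Il1r2 was most like Fkbp11 (0.948), Fam162a (0.945) and Elmod2 (0.941), and Il1rap most like Grifin (0.956), Ppp1r13b (0.929) and Smim27 (0.923). Over the 22 single libraries the same r ranged from 0.114 (Il1r2 with Fkbp11) to 0.858 (Il1r2 with Elmod2), and was 0.676 for Il18rap with Ccr2 and 0.83 for Il1r1 with Tnf. The points share libraries and depth, so these r values describe the groups only.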

How the data were processed

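RNA of sorted spleen CD4 T cells was sequenced from 10 ng per library, per the labels. The deposited values are whole counts: per gene for QuantSeq (22 libraries) and per transcript for RNA-seq (8 libraries). The submitters' processing notes name Bowtie 0.12.2, STAR 2.7.0c, featureCounts 1.6.0 and the builds mm10, GRCm38.p6 and mm9. The program and build behind each kind of file are not given in the sources used here. GENCODE M21 gave gene names. The 93 QuantSeq identifiers without a name (0.00617% of counts) were kept under their identifier, and unnamed RNA-seq transcripts (14.66% of counts) were left out. In RNA-seq the transcript with the most counts stands for its gene, because summing multiplies counts 2.517-fold where reads are shared. CPM divide by all counts so used.

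Within each assay, edgeR 4.0.16 (R 4.3.3, TMM factors, filterByExpr with minimum count 10 and minimum total 15, robust quasi-likelihood test, Benjamini-Hochberg adjustment over all genes) was fitted over all groups. A gene was called at an adjusted p under 0.05. QuantSeq tests of TFH, TFH2, TH2 and knockout cells pooled the CXCR5 gates of a cell type. Bounds put 3 counts in each empty library, and intervals are 95% Poisson ones; both cover counting error only. The fit was tested on simulated data. Alternatives were RLE size factors, DESeq2 1.42.0, no filter, the 2 groups alone, single gates, TH2 subsets, transcript sums and leaving out each library.

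The 7 members and all lists were chosen with earlier results of these data known. The text names all members, called genes of each list (at most 4 per list and comparison), the genes of lists with 5 or fewer measured, and the 3 most alike genes per member. The 4-fold call rule and the GATA words were added after the data were seen.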

Additional observations from a re-analysis of the deposited data

Results flagged for a closer look

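Among 18 sets of QuantSeq libraries of a cell type (4 for TH2, 6 for TFH2 and 8 for TFH), 10 held a highest library whose gap to the next was most of the range. For normally spread values chance gives this in about 1 in 20 sets. Where all others are at 0 any read gives it, so that rate does not hold here. For Il1rl1 it was TFH CXCR5lo library 1 at 0.274 CPM (1 read) and TFH2 CXCR5lo library 1 at 37 CPM (105 reads). For Il18rap it was the same TFH2 CXCR5lo library 1, at 20.4 CPM (58 reads). Il1r2 had 0.337 CPM in TH2 library 2 and 0.342 CPM in TFH CXCR5hi library 1, 1 read each. Il1rn had 0.663 CPM in TH2 library 3 (2 reads) and 14.7 CPM in TFH CXCR5hi library 1 (43 reads). Il1rap had 20.3 CPM in TH2 library 1 (52 reads), 27 CPM in TFH CXCR5hi library 3 (109 reads) and 0.225 CPM in TFH2 CXCR5int library 2 (1 read). The other libraries of the set were all at 0 except for Il1rl1 and Il18rap in TFH2 and Il1rap in TFH. No cause of these values was tested.

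The 2 single RNA-seq libraries enter no comparison, and several members were above both naive libraries in them. The library labelled TH2 had 23.3 CPM of Il1rl1, 10.5 of Il18rap, 35.6 of Il1r1, 4.2 of Il1r2 and 1.56 CPM of Il1rn. The library labelled TFH2 had 93.5 CPM of Il1rl1, 53.6 of Il18rap, 5.81 of Il1r1, 1.03 of Il1r2, 0.876 of Il1rn and 11.9 CPM of Il1rap. The 95% Poisson interval of Il1rl1 was 20.9 to 25.9 CPM in the first and 88.3 to 99 CPM in the second, against at most 0.449 CPM in naive cells. Both libraries went against their labels in Cxcr5, and whether the labels were exchanged was not tested.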

How the results depend on the processing

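No paired analysis was possible because the labels carry no replicate numbers. Of 692 values of 59 member results under alternatives, 649 kept direction and call, 9 gained a call, 6 lost one and 28 turned direction, all 28 uncalled in the report. Where not stated, the cause was not tested. For TFH against TH2 in QuantSeq, members called were 1 (Il18rap), but 2 with DESeq2 and 0 with the CXCR5hi gate only, with TH2 libraries 3 and 4 only and in the fit on the 2 groups only, where Il18rap did not pass the filter. They were 1 without each library in turn, with adjusted p for Il18rap of 0.0191 to 0.0475. For TFH2 against TH2 the count was 0, but 1 (Il18r1) with DESeq2, no filter, the 2 groups only and the CXCR5hi gate only (adjusted p = 0.0112, 0.000294, 0.0335 and 0.0177). For TFH2 CXCR5hi against CXCR5lo it was 0 to 1 without each library in turn. In RNA-seq, leaving out a library leaves a group of 1, assumed to vary like the others. The counts were then 5 to 6 for TH2 against naive, 5 to 5 for TFH against naive and 5 to 6 for TFH against TH2. Il1rn for TFH against naive was called with transcript sums (adjusted p = 0.0175).

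Directions that turned, in log2 differences, were these. In TFH against TH2, TH2 libraries 3 and 4 only gave Il1rl1 0.90, Il1r2 1.00 and Il1rap 6.78, and the CXCR5hi gate only gave Il1r2 0.24 and Il1rap 0.83. Without each library in turn, Il1r2 ran from -1.65 to 1.00 and Il1rap from -2.05 to 6.78. In TFH2 against TH2, Il1rl1 was -2.46 with the CXCR5hi gate only, and Il1rap was 1.04 with TH2 libraries 3 and 4 only and -6.91 to 1.03 without each library in turn. In Bcl6KO against TH2, values without each library in turn were -2.48 to 7.54 for Il1rl1, -0.34 to 1.41 for Il18r1, -7.75 to 1.81 for Il18rap, -1.67 to 7.48 for Il1r2 and -6.99 to 8.21 for Il1rap. In Il4KO against TH2, TH2 libraries 3 and 4 only gave Il18rap 0.30 and Il1rap 6.21, and leaving out each library in turn gave Il18r1 -1.77 to 0.37, Il1r2 -1.64 to 3.05 and Il1rap -6.96 to 6.20. In RNA-seq, Il1rap ran from -0.38 to 0.02 (TH2 against naive), -0.05 to 0.10 (TFH against naive) and -0.02 to 0.44 (TFH against TH2).

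Counts over all genes moved more. TFH against TH2 gave 751 calls, but 460 and 412 with TH2 libraries 3 and 4 or 1 and 2 only, subsets that moved the median of all genes to 0.33 and 0.24. TFH2 against TH2 gave 565, but 888 with DESeq2 and 327 with TH2 libraries 1 and 2 only. TFH2 against TFH gave 45, but 118 with DESeq2, 107 with no filter, 93 for the mean of gates and 70 without TFH CXCR5hi library 2. Bcl6KO against TH2 gave 2, but 135 with DESeq2, 20 with no filter, 11 and 32 with the TH2 subsets and 1 in the fit on the 2 groups. It was 65 and 26 without Bcl6KO library 1 or 2, and 2, 6, 2 and 9 without TH2 library 1, 2, 3 or 4. Il4KO against TH2 gave 8, but 78, 42, 13, 36 and 0 in the same order, 41 and 47 without Il4KO library 1 or 2, and 5, 10, 9 and 15 without TH2 library 1, 2, 3 or 4. TFH CXCR5hi against CXCR5lo gave 20, but 83 with DESeq2, 33 with no filter and 7 in the fit on the 2 groups, and TFH2 gave 22, but 126, 36 and 0. Without TFH CXCR5hi library 1 the TFH count was 13, and it was 14 to 29 without any other. The TFH2 count was 111 without CXCR5lo library 1, 38 without CXCR5hi library 1, and 21 and 29 without the others. Depth limits QuantSeq: a member at 0 in a library of 1834612 counts was not detectable there, not absent.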
